A study of Mus musculus with 8 samples.

Results

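The aminoacyl-tRNA synthetases are the enzymes that load each tRNA with its amino acid, and the expression of their genes was followed here on 8 Affymetrix mouse arrays of granulocytic myeloid-derived suppressor cells (Gr-MDSCs). The list was taken by name: 36 nuclear genes, 20 of them for the cytosolic enzymes and 16 for the mitochondrial ones, whose symbols end in 2. Of these, 35 had a probe set that belongs to 1 gene (19 cytosolic and 16 mitochondrial), out of 18193 such genes on the array. Dars, for aspartate, had none. Mars2, for mitochondrial methionine, had a mean log2 signal of 2.92, below the filter on low signals, so that 19 cytosolic and 15 mitochondrial synthetases were tested among 14237 genes. Each gene is given by its probe set with the highest mean signal.

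The Gr-MDSCs were isolated from prostate tumors of male CPPSML mice, which carry PB-Cre+ with PtenL/L, p53L/L and Smad4L/L as well as the reporters mTmGL/+ and LSL-LucL/+. The PB promoter drives Cre in prostate epithelium, so the floxed genes are meant to be lost in the tumor cells and not in the myeloid cells. All mice were castrated once a tumor had reached 150 mm3 and then fed enzalutamide, an androgen receptor blocker, for 4 weeks, and the labels give an age of 12 to 16 weeks, while the design text gives 8 to 12. The isolated cells were kept for 6 h with 0.1 µM Dactolisib, an inhibitor of PI3K and mTOR (2 arrays), with 0.1 µM Dasatinib, an inhibitor of Src family and other tyrosine kinases (2 arrays), or with the solvent DMSO (4 arrays, numbered 2 to 5 in their titles). The comparisons ask whether each drug changes the RNA of the cells. Nothing in the labels says that the arrays come from separate mice or isolations, so the p-values measure the spread between these arrays, which may be technical.

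In the cytosol, each synthetase attaches 1 amino acid to its tRNAs for the ribosome, and several of them are held together in the multisynthetase complex. Mitochondria translate their own few messages and use a separate set of synthetases, encoded in the nucleus and imported, although Gars and Kars serve both compartments. mTOR is a main regulator of protein synthesis, and many cytosolic synthetase genes are known targets of the transcription factor Atf4, which cells use when amino acids run short or proteins misfold.

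The arrays fell into 3 sets that cut across the treatments. The sets were drawn with the synthetases and the genes of the pathway lists left out. The cell type markers were not left out, so they had a part in drawing the sets. Set A holds Dactolisib 1, DMSO 2 and DMSO 4, set B holds Dactolisib 2, Dasatinib 2 and DMSO 3, and set C holds Dasatinib 1 and DMSO 5. Arrays of 1 set had Spearman correlations across probe sets of at least 0.982, and arrays of different sets reached at most 0.972, while the median log2 signal of an array lay between 4.82 and 4.87. Of the granulocyte markers, S100a8 was high on every array (13.5 to 13.9), but others were less even. Ltf was at 9.29 to 9.51 in set B and 12.3 to 12.9 elsewhere, and Mmp8 at 7.48 on Dasatinib 1 and 9.08 to 9.70 elsewhere. The monocyte and macrophage markers reached from Csf1r, at 11.4 to 12.5, to Mrc1, at 4.49 to 6.56. The mean log2 signal of 10 epithelial markers was 7.14 to 7.49 in set B, 9.12 to 9.37 in set A and 11.6 to 11.9 in set C, and none of these markers was near the bottom of the range on any array. That of 4 seminal vesicle markers was 3.02 to 3.19 in sets A and B but 8.48 on Dasatinib 1 and 11.0 on DMSO 5. These 4 passed the filter on low signals, which used the mean over all 8 arrays with set C included, while Svs6 did not pass. Markers of other cells, and some of the granulocytes, thus moved with the set. In bulk RNA, fewer cells of a type cannot be told apart from less RNA per cell. Each drug was therefore compared with DMSO both as the methods describe it, on all arrays of the 2 groups, and within array sets, where the set was a block in the fit. Within sets, Dactolisib is measured against DMSO 2, 3 and 4, and Dasatinib against DMSO 3 and 5.

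A pair of letter patterns of factors known from synthetase and housekeeping promoters were looked for on both strands in the 250 bases before the gene start (RefSeq, build GRCm38.p6), where 28 promoters of 27 synthetases were at hand. TGATGNAA, the composite site that Atf4 binds with a C/EBP partner, was found in 3 of 13 promoters of cytosolic synthetases, in 0 of 15 of mitochondrial ones and in 3.45% of all 32851 promoters. The 3 matches are shown because they belong to Aars, Gars and Tars, whose levels are followed in the comparisons, and the capitals mark the pattern, here read on the opposite strand. They lie at chr8:111033700-111033767 (plus strand) for Aars, chr6:55037941-55038000 (plus strand) for Gars and chr15:11399659-11399703 (minus strand) for Tars.
Aars: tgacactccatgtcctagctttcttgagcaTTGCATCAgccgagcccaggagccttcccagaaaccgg
Gars: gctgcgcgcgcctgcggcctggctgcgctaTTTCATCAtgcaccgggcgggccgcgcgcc
Tars: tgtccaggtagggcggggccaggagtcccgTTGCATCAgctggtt

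The other pattern, bound by NRF1 and spelled GCGC, then any base, then TGCGC, was found in 2 of 13 cytosolic promoters, in 0 of 15 mitochondrial ones and in 3.74% of all promoters. NRF1 drives many housekeeping and mitochondrial genes. Its letters are in capitals in the stretches of Kars, at chr8:112011364-112011433 (minus strand), and of Tars, at chr15:11399788-11399857 (minus strand), which are both genes whose signal fell with Dactolisib. The patterns do not overlap in Tars. A match is a run of letters and not a measured binding site.
Kars: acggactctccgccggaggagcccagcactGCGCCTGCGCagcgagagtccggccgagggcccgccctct
Tars: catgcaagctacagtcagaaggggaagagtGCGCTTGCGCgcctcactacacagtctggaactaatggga

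Dactolisib for 6 h lowered 6 of the 34 tested synthetases within array sets, namely Tars, Lars, Hars, Iars and Kars of the cytosol and Hars2 of the mitochondria, and raised 0. This is 5 of 19 cytosolic and 1 of 15 mitochondrial enzymes, where 4.66% of all genes tested were lower and 2.24% higher at an adjusted p under 0.05 (limma). The median difference of the cytosolic synthetases was -0.14 on the log2 scale, with 16 of 19 below 0 and a range of -0.47 to 0.13. The median of the mitochondrial synthetases was -0.00, with 8 of 15 below 0 and a range of -0.54 to 0.26, and that of all genes was also -0.00. In the fit without the set block, 0 synthetases and 0% of genes in either direction passed, and the lowest adjusted p of any synthetase was 0.775. At an unadjusted p under 0.05, that fit gave 3 cytosolic synthetases (Aars, Hars and Kars) and 1 mitochondrial one (Hars2) as lower and 0 as higher, against 3.72% and 2.73% of all genes. The corresponding counts within sets were 8 cytosolic and 2 mitochondrial synthetases lower and 0 higher, against 15.1% and 9.17% of all genes.

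**Figure D1:**
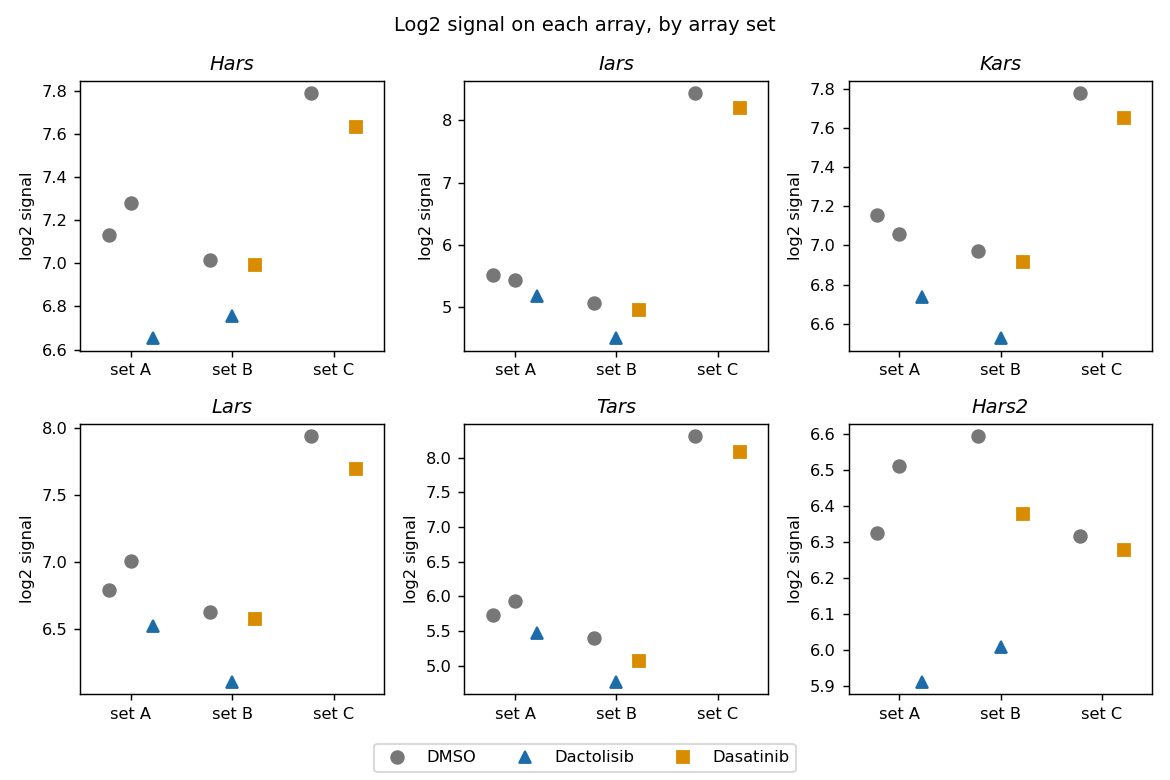
Log2 signal of the 6 synthetases that were lower with Dactolisib, 1 panel per gene, with 1 point per array placed by array set and marked by treatment. In sets A and B each Dactolisib array lies below the DMSO arrays of its own set, and in 5 of the 6 genes the arrays of set C lie above all others, with Hars2 as the exception.

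Tars, which charges threonine, had log2 signals of 5.47 on Dactolisib 1 against 5.73 and 5.93 on the DMSO arrays of set A, 4.77 on Dactolisib 2 against 5.40 on DMSO 3 and 5.06 on Dasatinib 2 in set B, and 8.08 on Dasatinib 1 and 8.31 on DMSO 5 in set C. Each Dactolisib array was thus the lowest of its own set, but the DMSO array of set B lay below the Dactolisib array of set A. The fitted difference was -0.47 ± 0.10 (SE, adjusted p = 0.0420).

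Lars, for leucine, was at 6.52 with Dactolisib and 6.79 and 7.01 with DMSO in set A, at 6.11 with Dactolisib, 6.62 with DMSO and 6.57 with Dasatinib in set B, and at 7.94 with DMSO and 7.70 with Dasatinib in set C. Here both Dactolisib arrays were below all 6 others, and the fall was -0.44 ± 0.10 (adjusted p = 0.0420). Iars, for isoleucine, was at 5.19 against 5.52 and 5.45 in set A, at 4.50 against 5.07 with DMSO and 4.95 with Dasatinib in set B, and at 8.43 with DMSO and 8.19 with Dasatinib in set C. It was the lowest of each set with Dactolisib, though Dactolisib 1 overlapped the arrays of set B, and it fell by 0.41 ± 0.09 (adjusted p = 0.0441).

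Kars, for lysine, was at 6.74 with Dactolisib against 7.16 and 7.06 with DMSO in set A, at 6.52 against 6.97 with DMSO and 6.91 with Dasatinib in set B, and at 7.78 and 7.65 with DMSO and Dasatinib in set C. The 2 Dactolisib arrays were the lowest of the 8, with a difference of -0.40 ± 0.08 (adjusted p = 0.0315). Hars, for histidine, was at 6.65 against 7.13 and 7.28 in set A, at 6.76 against 7.02 with DMSO and 6.99 with Dasatinib in set B, and at 7.79 and 7.63 in set C. Both Dactolisib arrays again lay below all others, and the difference was -0.43 ± 0.10 (adjusted p = 0.0484). The other tested probe set of Hars fell further, by 0.75 ± 0.08 (adjusted p = 0.0094).

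Hars2, the mitochondrial histidine enzyme, was the one member of its class that passed. Its signal was 5.91 with Dactolisib and 6.32 and 6.51 with DMSO in set A, 6.01 with Dactolisib, 6.59 with DMSO and 6.38 with Dasatinib in set B, and 6.32 with DMSO and 6.28 with Dasatinib in set C. Unlike the 5 cytosolic genes it was not raised in set C, and the Dactolisib arrays were below all 6 others, with a difference of -0.54 ± 0.09 within sets (adjusted p = 0.0200) and -0.48 ± 0.13 without the block (unadjusted p = 0.0084, adjusted p = 0.775). Its other tested probe set gave -0.16 ± 0.09 (adjusted p = 0.347) and did not pass. Hars and Hars2 are neighbouring genes on mouse chromosome 18 and encode closely related proteins. Whether their probe sets share target RNA was not tested.

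The count of 6 rested on single arrays, and so did the calls over all probe sets. Of 30024 probe sets, 1260 were lower in the main fit, 0 without DMSO 3 and 981 with quantile normalization. Without Dactolisib 1, Dactolisib 2 or DMSO 3 the count was 0 and without DMSO 4 it was 3, and quantile normalization or the use of all probe sets without a filter each left 1.

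**Figure D2:**
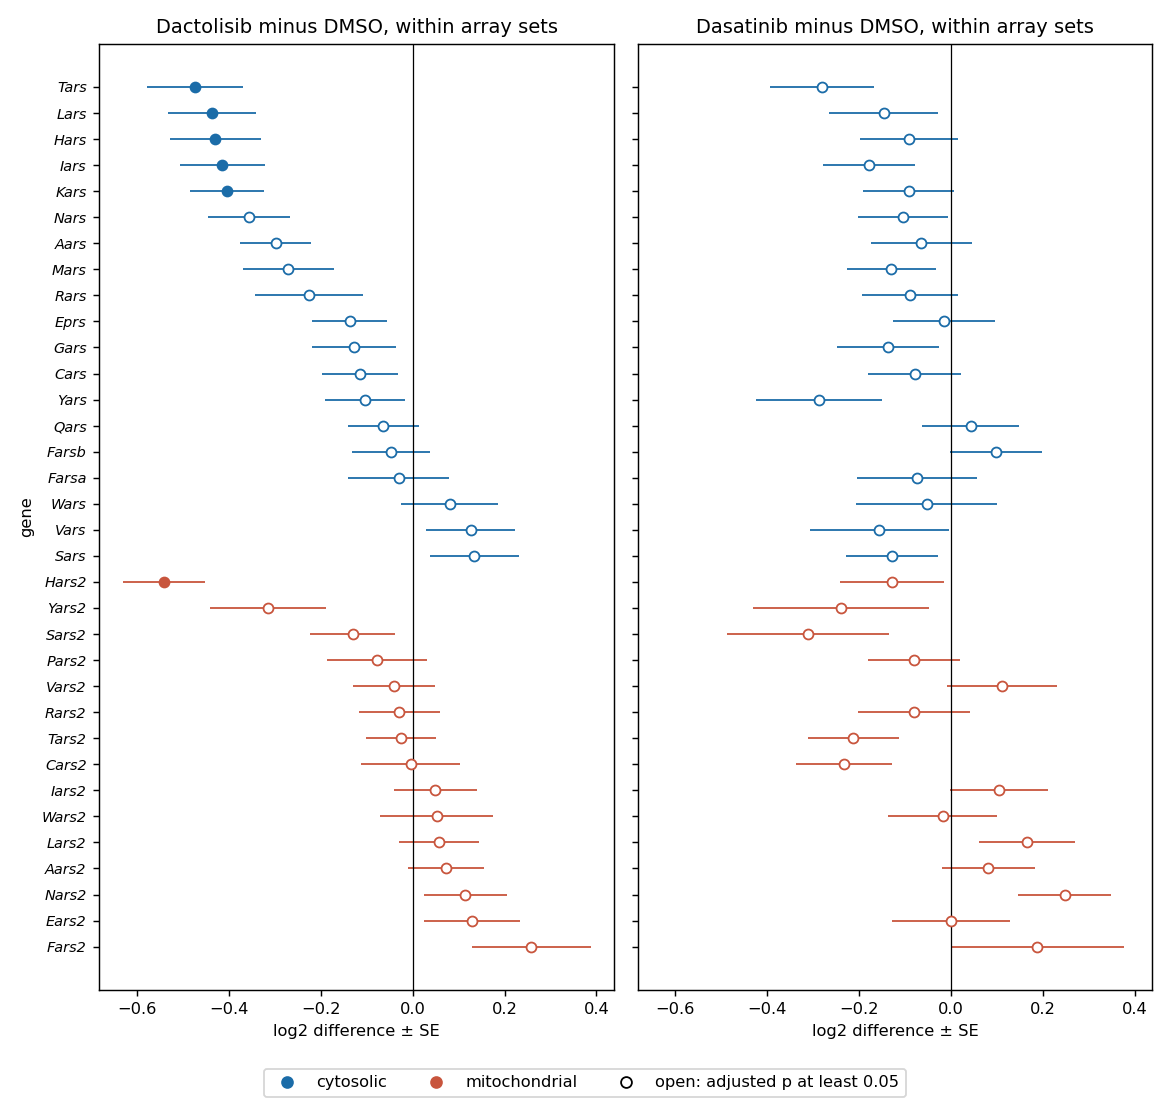
Log2 difference from DMSO within array sets for the 34 tested synthetases, with Dactolisib and Dasatinib in separate panels, where points are fitted values and bars the SE of limma. With Dactolisib the cytosolic genes lie mostly left of 0 (16 of 19) and the mitochondrial genes lie on both sides (8 of 15 below 0).

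Of the cytosolic synthetases that did not pass, Nars and Aars had the lowest adjusted p. Nars, for asparagine, was at -0.36 ± 0.09 (adjusted p = 0.0607), while its other probe set passed at -0.44 ± 0.10 (adjusted p = 0.0448). Aars, for alanine, was at -0.30 ± 0.08 (adjusted p = 0.0670). Mars, for methionine, was at -0.27 ± 0.10 (adjusted p = 0.153), Rars, for arginine, at -0.23 ± 0.12 (adjusted p = 0.298) and Gars, for glycine, at -0.13 (adjusted p = 0.456). Of the 3 genes with the Atf4 composite letters, Tars therefore passed, while Aars and Gars did not. Sars and Vars, for serine and valine, had the highest differences of the class, 0.13 for each, and Sars was at 9.54 and 9.29 with Dactolisib and at 9.23 to 9.33 with DMSO, so that the groups overlapped.

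The members of the multisynthetase complex were Eprs, the joint enzyme for glutamate and proline, with Iars, Lars, Kars, Rars, Mars and Qars, and Dars could not be measured. On both Dactolisib arrays all 7 were below the DMSO of their own set, where 35.4% of all genes were, with medians of -0.12 on Dactolisib 1 and -0.47 on Dactolisib 2. Of the 7, 3 passed the test (Iars, Lars and Kars), and the median difference was -0.27. Among the other 12 cytosolic enzymes, 6 were lower on both arrays, 2 passed (Tars and Hars) and the median was -0.11. Qars, for glutamine, had the smallest difference in the complex at -0.06, and Eprs was at -0.14 (adjusted p = 0.360). Over all 19 cytosolic synthetases, 13 were below the DMSO of the own set on both Dactolisib arrays and 1 was above it on both.

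**Figure D3:**
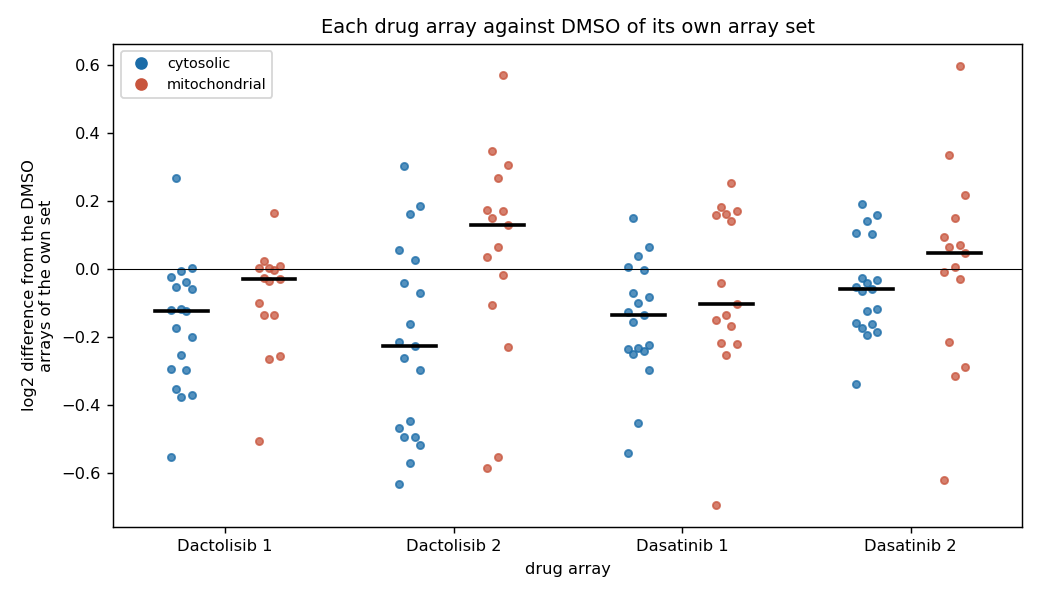
Log2 difference of each drug array from the mean of the DMSO arrays of its own array set, with 1 point per synthetase and the classes in separate colors. The medians of the cytosolic genes are -0.12 and -0.23 on the Dactolisib arrays and -0.14 and -0.06 on the Dasatinib arrays, and those of the mitochondrial genes are -0.03, 0.13, -0.10 and 0.05.

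Outside of Hars2, the mitochondrial synthetases did not pass in either direction with Dactolisib. On both arrays 3 of 15 were lower and 3 were higher than the DMSO of their set, with 31.6% of all genes higher on both. Yars2, for mitochondrial tyrosine, had the next lowest p, at -0.31 ± 0.13 (adjusted p = 0.189), with signals of 3.78 and 3.46 on the Dactolisib arrays, 4.06 and 3.77 on the DMSO arrays of set A and 4.01 on DMSO 3, so that the groups overlapped in set A. Fars2, for phenylalanine, had the highest difference of the class, 0.26 ± 0.13 (adjusted p = 0.281), and Sars2, for serine, was at -0.13 ± 0.09 (adjusted p = 0.454). Of the pairs of enzymes for the same amino acid in the 2 compartments, Lars was at -0.44 and Lars2 at 0.06, and Tars at -0.47 and Tars2 at -0.02, but Hars was at -0.43 and Hars2 at -0.54, Wars at 0.08 and Wars2 at 0.05, and Yars at -0.10 and Yars2 at -0.31. The differences within these pairs were not tested, and signals of different probe sets cannot be set against each other.

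Some markers of cell types moved with Dactolisib as well. Within array sets, 2 of 9 markers of the granulocytes themselves fell (Cxcr2 and Mmp9), and of other cells 3 of 10 of monocytes and macrophages (Cx3cr1, C1qa and C1qc) and 2 of 10 epithelial ones (Cldn4 and Cdh1) fell, with medians of -0.08, -0.17 and -0.10. Over all genes tested, 4.66% were lower. The epithelial markers had medians of -0.19 and -0.15 on the 2 Dactolisib arrays against the DMSO of the own set. Of the 10, 6 were lower on both, where 35.4% of all genes were. The part of these cells in the fall of the synthetases was not tested. The difference between the probe sets of Gapdh at the 3' end and the 5' end, a sign of RNA breakdown, was -0.04 and -0.08 on the Dactolisib arrays and -0.10 to -0.04 on the DMSO arrays. For the probe sets of Actb it was 0.08 on Dactolisib 1 against 0.03 and 0.04 on the DMSO arrays of set A, and 0.15 on Dactolisib 2 against 0.08 on DMSO 3, so that each Dactolisib array was above the DMSO of its own set. Whether RNA quality had a part in the fall of the synthetases was not tested.

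The genes around the synthetases were read from 4 lists. Of 14 partners of charging, 3 fell with Dactolisib and 0 rose: Qrsl1, a subunit of the mitochondrial amidotransferase that makes glutaminyl-tRNA (-0.49 ± 0.08, adjusted p = 0.0196), Eef1e1, a scaffold protein of the multisynthetase complex (-0.40 ± 0.08, adjusted p = 0.0389), and Mtfmt, which formylates the mitochondrial initiator tRNA (-0.38 ± 0.09, adjusted p = 0.0478). Of 47 genes of tRNA processing and modification, 2 fell and 0 rose, and these were Rpp30, a subunit of RNase P (-0.45 ± 0.09, adjusted p = 0.0285), and Tsen34, a subunit of the tRNA splicing endonuclease (-0.34 ± 0.08, adjusted p = 0.0441). Of 20 genes of RNA polymerase III, which transcribes tRNA genes, and its factors, 2 fell and 0 rose, with Gtf3c6 at -0.59 ± 0.08 (adjusted p = 0.0130) and Polr3gl at -0.39 ± 0.08 (adjusted p = 0.0370). The medians of the 3 lists were -0.09, -0.13 and -0.09, and the counts stand beside 4.66% lower and 2.24% higher over all genes.

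In the list of Atf4 and its known targets outside of the synthetases, 2 of 19 genes rose and 0 fell, against 2.24% and 4.66% of all genes. At an unadjusted p under 0.05, 5 of the 19 were lower and 5 higher, against 15.1% and 9.17% of all genes. The 5 higher include the 2 that rose. Of the 19 differences 10 were below 0, with a median of -0.02. Ddit3, a stress-induced partner of C/EBP factors, rose by 0.57 ± 0.08 (adjusted p = 0.0144). Atf4 itself was at 11.66 and 11.97 with Dactolisib, at 11.31 and 11.34 with DMSO in set A, 11.64 with DMSO in set B and 11.81 with DMSO in set C, so that each Dactolisib array lay above the DMSO arrays of its own set, and it rose by 0.33 ± 0.08 (adjusted p = 0.0490). Asns, for asparagine synthesis, was at -0.22 ± 0.09 (adjusted p = 0.191) and Trib3 at -0.43 ± 0.12 (adjusted p = 0.0820). These 4 lists had 0 calls in the other comparisons.

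Dasatinib changed 0 of 34 synthetases, within array sets or without the block, and 0% of all genes passed in either fit (limma). At an unadjusted p under 0.05 within sets, 1 cytosolic synthetase was lower (Tars) and 1 mitochondrial synthetase was higher (Nars2), against 2.1% of genes lower and 1.86% higher, and without the block there were 0, against 0.162% and 0.14%. Tars was at 8.08 with Dasatinib against 8.31 with DMSO in set C and at 5.06 against 5.40 in set B, a difference of -0.28 ± 0.11 (adjusted p = 0.850). Nars2 was at 0.25 ± 0.10 (adjusted p = 0.850). Within sets, 17 of 19 cytosolic differences were below 0 with a median of -0.09, and on both Dasatinib arrays 11 of 19 were lower than the DMSO of their set, where 22.8% of all genes were. For the mitochondrial class the median was -0.02, with 3 of 15 lower and 3 higher on both arrays, against 21.9% of all genes higher on both. Dasatinib 1 was also below DMSO 5 in the seminal vesicle markers, with a median of -2.33 for the 4 genes. The 6 tested fibroblast markers had medians of -0.89 on Dasatinib 1 and -0.26 on Dasatinib 2 against the DMSO of the own set, with 4 of 6 lower on both, and a median of -0.60 within sets. Whether these cells have a part in the synthetase values was not tested.

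The drugs were then compared with each other at the same dose and time, over the 34 tested synthetases and with the array set as a block. With p-values adjusted over all probe sets tested, 0 synthetases and 0% of genes passed, and the lowest adjusted p of a synthetase was 0.201 (limma). At an unadjusted p under 0.05, 5 of 19 cytosolic synthetases (Hars, Iars, Kars, Lars and Nars) and 1 of 15 mitochondrial ones (Hars2) were lower with Dactolisib than with Dasatinib and 0 were higher, against 9.78% and 5.07% of all genes. Kars differed by -0.34 (95% interval -0.58 to -0.10) and Hars2 by -0.40 (-0.67 to -0.13). For Tars, the cytosolic gene with the largest fall with Dactolisib, the difference between the drugs was -0.23, with an interval of -0.52 to 0.07 that includes 0. The median was -0.17 for the cytosolic class, and lay between -0.43 and -0.05 under the alternatives run. For the mitochondrial class it was 0.05 and lay between -0.17 and 0.09, so that its sign was not settled. A fall with Dactolisib past the threshold and a miss with Dasatinib therefore do not by themselves show that the drugs differ.

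**Figure D4:**
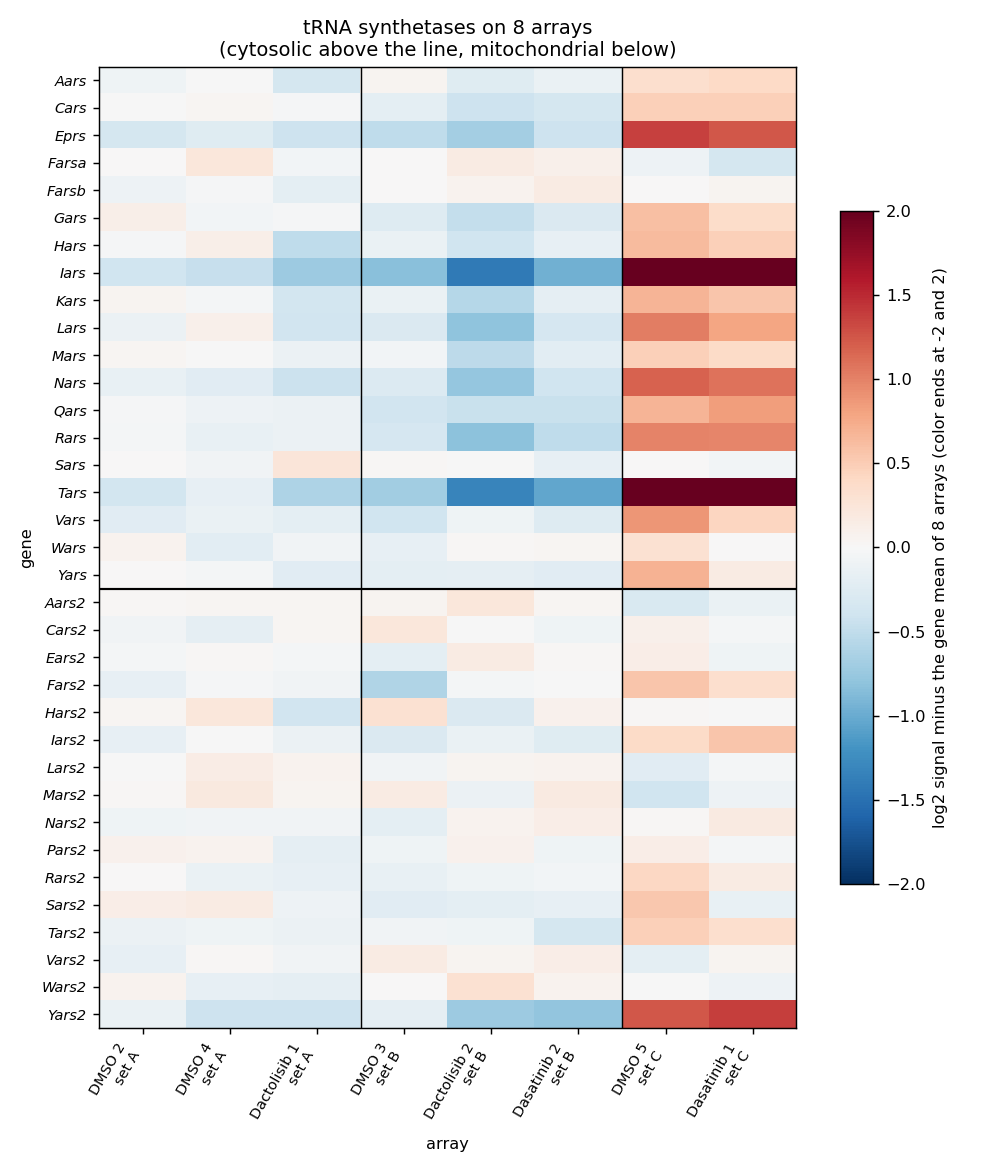
Signal of the 35 synthetases on the 8 arrays, each gene shown as its log2 difference from its own mean, with arrays ordered by set and the cytosolic genes above the line. Most cytosolic genes have their highest values on the 2 arrays of set C, and 5 of the 15 tested mitochondrial genes do.

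The cytosolic synthetases also differed between array sets, and mostly in set C. On both arrays of set C, which differ in treatment, 15 of 19 cytosolic synthetases lay above all 6 other arrays and 1 (Farsa) lay below them, whereas among all genes 24.6% lay above and 29.4% below. The median difference between the mean of set C and that of the other arrays was 0.74 for the cytosolic class, with a range of -0.30 to 3.20, 0.07 for the mitochondrial class (-0.29 to 1.76) and -0.11 for all genes. No test is given, as the sets were drawn from these data. The largest were Iars at 3.20, Tars at 2.80, Eprs at 1.74, Nars at 1.51, Rars at 1.31 and Lars at 1.21, and all 7 genes of the complex lay above the other arrays with a median of 1.21.

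In the mitochondrial class 5 of 15 lay above all other arrays and 1 (Aars2) below. Yars2 led with 1.76, on signals of 5.58 and 5.44 in set C and 3.39 to 4.06 elsewhere, followed by Iars2 at 0.62, Fars2 at 0.60 and Tars2 at 0.54. Yars2 passed the filter on low signals, at 3.98, with a mean of 4.19 over all arrays. Outside set C its mean lay below the filter, so that it was tested only because of its signals in set C. The filter thus favored the count of 5 and the upper end of the range of this class. Hars2 was at 0.01. The same order was seen among the DMSO arrays alone, where DMSO 5 exceeded the DMSO arrays of set A by a median of 0.67 in the cytosolic class and 0.14 in the mitochondrial class, against -0.08 over all genes. DMSO 5 lay above the other 3 DMSO arrays in 32.8% of all genes. The 2 DMSO arrays of set A, for comparison, differed by a median absolute value of 0.10 and 0.14 in these classes.

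**Figure D5:**
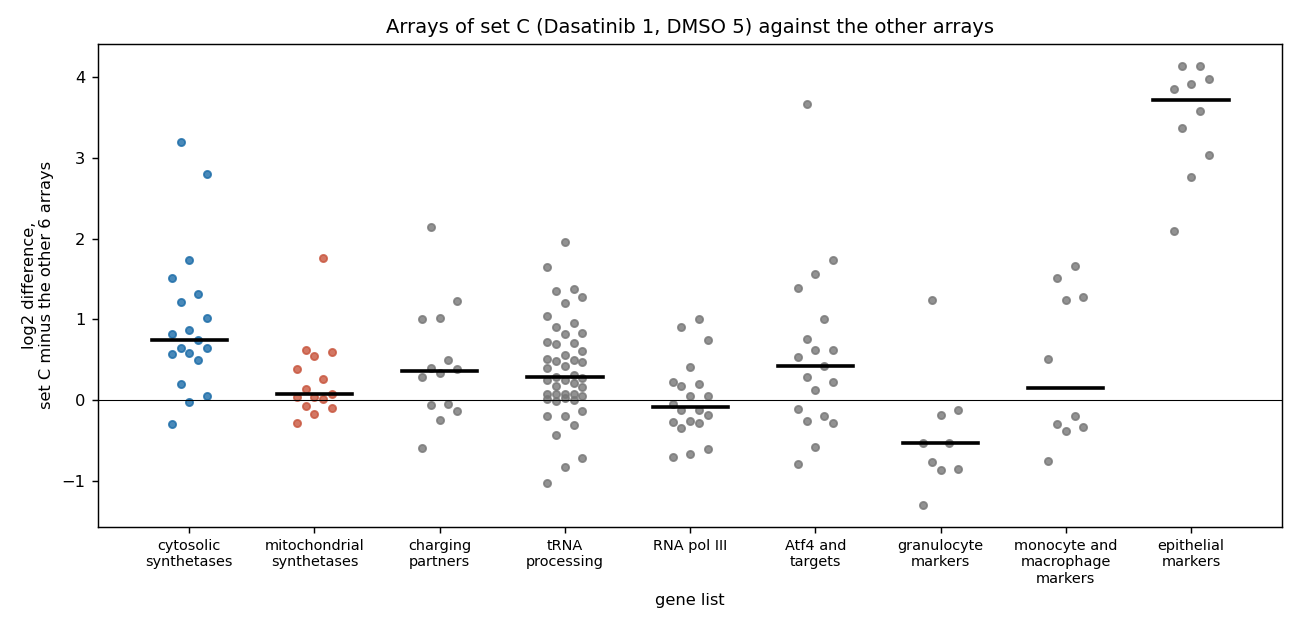
Log2 difference between the mean of the 2 arrays of set C and the mean of the other 6 arrays, with 1 point per gene in each list. The cytosolic synthetases have a median of 0.74, the mitochondrial synthetases 0.07 and the epithelial markers 3.72.

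The epithelial markers were higher in set C for 10 of 10 genes, with a median of 3.72, and the seminal vesicle markers for 3 of 4, with a median of 7.54. The filter on low signals favored this last count. Outside set C, Svs2 and Svs4 reached at most 2.29 and 2.75, below the filter at 3.98, and they passed it through set C alone. Svs5 reached at most 4.11 there. Svs6, at 2.68 on Dasatinib 1 and 6.48 on DMSO 5, did not pass and is left out. All 6 tested fibroblast markers had higher means in set C, with a median of 1.51, but only 2 lay above all other arrays. Of 10 monocyte and macrophage markers, 5 lay above all other arrays and 1 below, with a median of 0.15. They ranged from -0.76 (Csf1r) to 1.66 (Mrc1), and Adgre1, Cx3cr1, Cd68 and Ccr2 also had lower means in set C. Of 9 granulocyte markers, 5 lay below all other arrays and 0 above, with a median of -0.54, although Ltf was at 1.24. Among all genes, 24.6% lay above and 29.4% below. The mean log2 signal of the 19 cytosolic synthetases was 6.77 to 6.99 in set B, 6.99 to 7.16 in set A and 7.87 to 8.02 in set C, and that of the 15 mitochondrial ones was 5.12 to 5.17, 5.09 to 5.19 and 5.37 to 5.43. On all 3 arrays of set B, 6 of 19 cytosolic and 1 of 15 mitochondrial synthetases were below all 3 of set A, against 17.9% of all genes, and the median difference of the means of set B and set A was -0.19 and -0.00 in the 2 classes. The part of epithelial, fibroblast or macrophage RNA in these differences was not tested. In the Atf4 list, the charging partners, tRNA processing and RNA polymerase III, the median differences of set C were 0.42, 0.36, 0.28 and -0.09.

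For some genes the choice of probe set decided what was seen. Farsa, a subunit of the phenylalanine enzyme, was given by a probe set at -0.03 with Dactolisib and -0.30 in set C, while another of its probe sets was at -0.27 and 0.82. Farsb, the other subunit, had a set C difference of 0.04 in the probe set used and 0.56 to 2.80 in its other tested ones. Cars, for cysteine, was at -0.11 with Dactolisib in one probe set and 0.22 in the other, Wars, for tryptophan, at 0.08 in the one used and at -0.12 to -0.10 in the others, and Qars at 0.03 in one of its other probe sets. None of the Dactolisib values of these 5 genes passed the test.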

How the data were processed

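The 8 arrays were deposited as log2 signals of 45101 probe sets, which the authors had put on a common scale. The submitters' notes name MAS5 and the paper names the oligo package, so the summary method is not settled. Groups follow the titles, because both Dasatinib samples carry Dactolisib in their treatment label. Deposited log2 values were used as given. After 64 controls were left out, the 30024 probe sets with the highest means over the 8 arrays (66.7%) were tested with limma 3.58.1 in R 4.3.3 (Benjamini-Hochberg over all, threshold 0.05). Array sets came from average linkage on 1 minus Pearson's correlation. The fits of 1 drug against DMSO have 2 residual degrees of freedom within sets and 4 without the block. The fit between the drugs uses all 8 arrays. The number of arrays limits the precision. Probe sets were named through the platform annotation (34945 with 1 gene, 932 with several), where Mars appears as Mars1. Any member may be named. Full statistics are given at least for members that passed, for the 4 of a class with the lowest p where fewer passed, and for up to 4 passing genes of a list. The members and lists were chosen with earlier results of these data known. The fits were tested on simulated data.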

Additional observations from a re-analysis of the deposited data

Results flagged for a closer look

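Among the 4 DMSO arrays, DMSO 5 stood far from the other 3 in 6 of 35 synthetases, and no other DMSO array did so in any. It was the highest for Eprs (7.75 against 5.86 to 6.13), Iars (8.43 against 5.07 to 5.52), Mars (7.82 against 7.28 to 7.37), Nars (10.12 against 8.67 to 8.81) and Tars2 (5.86 against 5.28 to 5.32), and the lowest for Aars2 (6.23 against 6.56 to 6.59). Each was picked because the gap to the nearest array, divided by the range of the 4, exceeded the 95% value of Dixon's test, which chance exceeds in about 1 in 20 groups. DMSO 5 is the only DMSO array of set C. Over all 14237 tested genes, it lay above the other 3 DMSO arrays in 4671 and below them in 6824. The share of all genes past the value of Dixon's test was not computed.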

How the results depend on the processing

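The number of synthetases lower with Dactolisib within array sets, 6, became 1 with quantile normalization, 1 with no filter on low signals, 3 with array weights and 3 with all 8 arrays in one fit. Leaving out 1 array gave 0 to 6: 0 without Dactolisib 1, Dactolisib 2 or DMSO 3, 3 without DMSO 4 and 6 without DMSO 2 or DMSO 5, where an array left alone in its group is assumed to vary like the others. It was 8 with 32 added before log2, with the brightest 1 in 3 of probe sets, with a prior that was trended and robust, and with the mean of the probe sets of a gene. When 1 passing probe set of any brightness was enough for a gene, a choice made after seeing the data, it was 7. Calls over all probe sets moved as well, from 1260 of 30024 lower in the main fit to 2481 of 30025 with 32 added. They were 2255 of 15013 with the brightest 1 in 3 and 2486 of 30024 with the trended and robust prior. With the mean of the probe sets of a gene, 1038 of 14237 genes were lower. Without DMSO 2, DMSO 4 or DMSO 5, the calls were 1846, 1039 and 1260 of 30024. Quantile normalization gave 981, array weights 1107 and all 8 arrays in one fit 716 of 30024, and no filter 810 of 45037. The cause was not tested, apart from the loss of samples where an array is left out. Hars2 lost its call in 3 settings, without Dactolisib 1 (adjusted p = 0.188), Dactolisib 2 (0.151) or DMSO 3 (0.151), and no fitted difference changed sign among the genes followed (those past the threshold, Nars, Aars, Mars, Rars, Yars2 and Fars2). In the other 4 comparisons the count was 0 in each setting that kept 2 arrays or more of each group, including the methods' t-test after adjustment where it was run. Over all probe sets, some of these settings had calls. Between the drugs, 165 were lower and 75 higher of 30025 with 32 added. It was 147 and 58 of 15013 with the brightest 1 in 3, and 204 and 77 of 30024 with the trended and robust prior. Dasatinib within sets had calls in both directions without DMSO 3, where set C alone compares it with DMSO.

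The replicate numbers of the titles are shared between groups, but nothing says that they pair the arrays. With the replicate number as a block, 0 synthetases passed in the comparisons without the set block and between the drugs. Deviations of same-numbered arrays correlated at 0.559 between the drugs, at -0.24 between Dactolisib 2 and DMSO 2 and at 0.396 between Dasatinib 2 and DMSO 2, and no crossed pairing was tried.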
